A study of Mus musculus with 20 samples.

Results

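The 10 genes described here are the flow-responsive transcription factor genes Klf2 and Klf4 and 8 genes of vessel tone, Nos3, Ptgs2, Ptgis, Adm, Edn1, Ece1, Ace and Ednrb, followed in bone marrow endothelial cells after irradiation. They were chosen by name, with earlier results of these data known. They are 10 of 18193 genes measured, with 18 of the 34945 probe sets that carry a single gene symbol. Klf4, Ptgs2, Adm, Ece1, Ace and Ednrb have more than 1 probe set, and Klf2, Nos3, Edn1 and Ptgis have 1 each.

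RNA came from endothelial cells of the bone marrow, described as VE-cadherin+, of C57/Bl6 mice aged 8 to 10 weeks, and was hybridized to 20 single-colour Affymetrix arrays, 5 per group. Mice of 3 groups had received 5 Gy of ionizing radiation over the whole body (total body irradiation) and were sampled 6 hours, 24 hours or 14 days later, and the fourth group was not irradiated. One general treatment field gives 5 Gy for every sample, and the groups here follow the field that marks the fourth group as non-irradiated. The replicates are named biological, but whether each is 1 animal or a pool is not stated, so p-values measure the spread between these samples only, and how the cells were isolated is not given in the sources used here.

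Blood flowing over endothelium activates the kinases MEKK3, MEK5 and ERK5, and these switch on Klf2 and Klf4 through MEF2 factors. The resulting KLF proteins are known to raise the nitric oxide synthase gene Nos3 and the thrombomodulin gene Thbd and to lower the endothelin gene Edn1, a pattern associated with relaxed, non-thrombotic vessels. Nitric oxide, prostacyclin and adrenomedullin relax the smooth muscle of vessels, while endothelin and angiotensin II contract it.

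Promoter windows from RefSeq (GRCm38.p6, 250 bases before to 50 after a start site) were found for 8 of the 10 genes. Those of Klf2, Klf4 and Edn1 are shown because these genes carry the main contrast below. Klf2 and Klf4 moved together and were far lower at day 14, while Edn1 rose more at 6 hours and was not called lower at day 14. All of these genes were highest at 6 hours. Capitals mark matches to the MEF2 motif in Klf2, to ACGTG (the core of hypoxia response elements) in Klf4, and to AGATAA (the motif of GATA factors) and then the same hypoxia core in Edn1, each read on both strands.
Klf2, chr8:72318812-72319111, plus strand: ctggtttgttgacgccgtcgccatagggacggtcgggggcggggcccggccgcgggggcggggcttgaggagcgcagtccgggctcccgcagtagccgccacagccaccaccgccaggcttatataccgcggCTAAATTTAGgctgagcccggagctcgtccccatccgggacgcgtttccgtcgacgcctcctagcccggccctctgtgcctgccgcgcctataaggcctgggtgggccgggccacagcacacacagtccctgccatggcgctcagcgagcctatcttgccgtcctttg
Klf4, chr4:55532426-55532725, minus strand: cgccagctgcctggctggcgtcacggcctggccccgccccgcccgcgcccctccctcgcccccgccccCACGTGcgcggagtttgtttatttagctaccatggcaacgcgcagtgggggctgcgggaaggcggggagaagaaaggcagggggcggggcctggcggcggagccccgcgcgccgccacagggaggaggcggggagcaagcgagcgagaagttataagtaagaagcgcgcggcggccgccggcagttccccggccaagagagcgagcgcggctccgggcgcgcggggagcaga
Edn1, chr13:42301226-42301525, plus strand: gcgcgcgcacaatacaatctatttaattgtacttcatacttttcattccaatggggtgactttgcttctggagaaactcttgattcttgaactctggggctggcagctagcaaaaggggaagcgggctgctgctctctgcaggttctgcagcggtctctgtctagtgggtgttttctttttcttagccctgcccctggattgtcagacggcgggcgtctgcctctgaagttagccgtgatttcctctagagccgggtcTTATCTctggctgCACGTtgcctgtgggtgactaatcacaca

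The MEF2 motif began 118 bases before the start site of Klf2 and was found in no other of the 8 genes. It lies in 3.19% of all 32851 windows. The ACGTG core was found in Klf4, where the 2 strands' matches overlap in CACGTG, and in Edn1, Ece1 and Ptgs2, so in 4 of 8 genes, and it lies in 19.6% of all windows. The AGATAA motif, found in 1 of 8 genes, lies in 11.2% of windows. The letters CACCC, read by KLF proteins, are left in lower case because 57.5% of windows hold them. They were present in 5 of 8 genes, Klf2, Edn1, Ednrb, Ece1 and Ace. The motif of AP-1 factors, searched only as the letters TGANTCA (N for any base), was in 0 of 8 genes and in 7.81% of windows. Other forms of an AP-1 site were not searched. Ece1 and Ace have several windows, and a gene was counted when any of its windows matched. By window, the unit of the percentages, ACGTG was in 4 of 12 member windows and CACCC in 8 of 12. MEF2 and AGATAA were in 1 of 12 each and AP-1 in 0 of 12. A match describes these letters and is not a measured binding site.

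Values are given as signal, the linear brightness of a gene's brightest probe set after the scaling the arrays were deposited with, and each gene's signals are compared only with its own. Changes are differences of mean log2(signal + 1) with their standard error, and a gene is called higher or lower at a limma p under 0.05 after Benjamini-Hochberg adjustment over all genes. The labelled cell type was checked first. Cdh5, which encodes VE-cadherin, had a mean signal of 8954 ± 1263 at 6 hours, 4891 ± 188 at 24 hours and 1293 ± 270.1 at day 14, compared with 3186 ± 494 in non-irradiated samples (SD, n = 5 each). All 15 markers of an endothelial list were above background in every array of every group. Ptprc, the pan-leukocyte gene, was also bright, at 2722 ± 476 at 6 hours, 3811 ± 393 at 24 hours and 2726 ± 182 at day 14, compared with 4785 ± 417 in non-irradiated samples, so the RNA was not from endothelium alone.

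Endothelial marker signal itself moved between the groups. The 15 markers summed to between 49565 and 56519 at 6 hours, 26871 and 28394 at 24 hours and 9570 and 10662 at day 14, against 18972 to 20458 in non-irradiated samples. Of the 15, 14 rose and 0 fell at 6 hours, 6 rose and 0 fell at 24 hours, and 0 rose and 11 fell at day 14, with median log2 changes of 1.42, 0.30 and -1.08. In bulk RNA, fewer cells of a type and less RNA per cell cannot be told apart, so the changes of the 10 genes below are also given against the mean of these markers. Of 9 megakaryocyte markers 8 rose at 6 hours and 6 fell at day 14, and of 10 erythroid markers 10 fell at 6 hours and 10 at 24 hours. Hybridization control spikes set the 24-hour and day 14 arrays apart, with mean log2 signals of 12.84 ± 0.157 at 6 hours, 12.17 ± 0.164 at 24 hours and 12.14 ± 0.158 at day 14, compared with 12.77 ± 0.0837 in non-irradiated samples (SD, n = 5 each). The part of these differences in the results was not tested, except where a value is given.

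The first question was how the 10 genes stood at each time against non-irradiated cells. At 6 hours 8 genes were higher and 0 lower, with a median log2 change of 1.04. Among all genes 27.4% were called, 12.9% higher and 14.5% lower, and the median change was -0.02. At 24 hours 3 were higher (Edn1, Ece1 and Ptgis) and 0 lower, with a median of 0.12, where 29.5% of all genes were called, 15.7% higher and 13.8% lower, with a median of -0.07. At day 14 0 were higher and 6 lower (Klf2, Klf4, Nos3, Ptgs2, Ece1 and Ednrb), with a median of -0.89, where 22.4% of all genes were called, 9.47% higher and 13% lower, with a median of -0.18. The split at day 14 depended on the scale. Against the endothelial marker mean 5 of the 10 were higher and 4 lower, where 9233 of all genes were higher and 343 lower. With arrays centred on their medians Edn1, Ece1, Ptgis and Adm were called higher, where 8210 of all genes were higher and 461 lower. Over the 4 groups together limma's F test called all 10, against 55.1% of all genes. Because the 10 were chosen with earlier results known, the shares of all genes give a setting and no test of the set.

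In 6 genes all 5 arrays at 6 hours lay above all 5 non-irradiated arrays (Klf4, Edn1, Ednrb, Ece1, Ptgis and Adm), a separation that 7.59% of all genes showed upwards and 8.05% downwards. At 24 hours Edn1, Ece1 and Ptgis were separated upwards and Klf4 and Nos3 downwards, against 15.1% and 12.9% of all genes. At day 14 the 6 genes called lower were all separated, against 11.6% of all genes downwards and 11.4% upwards. The number of members called at 6 hours was 6 to 9 when 1 array at a time was left out, and it was 3 at 24 hours and 6 at day 14 in every such fit.

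**Figure D1:**
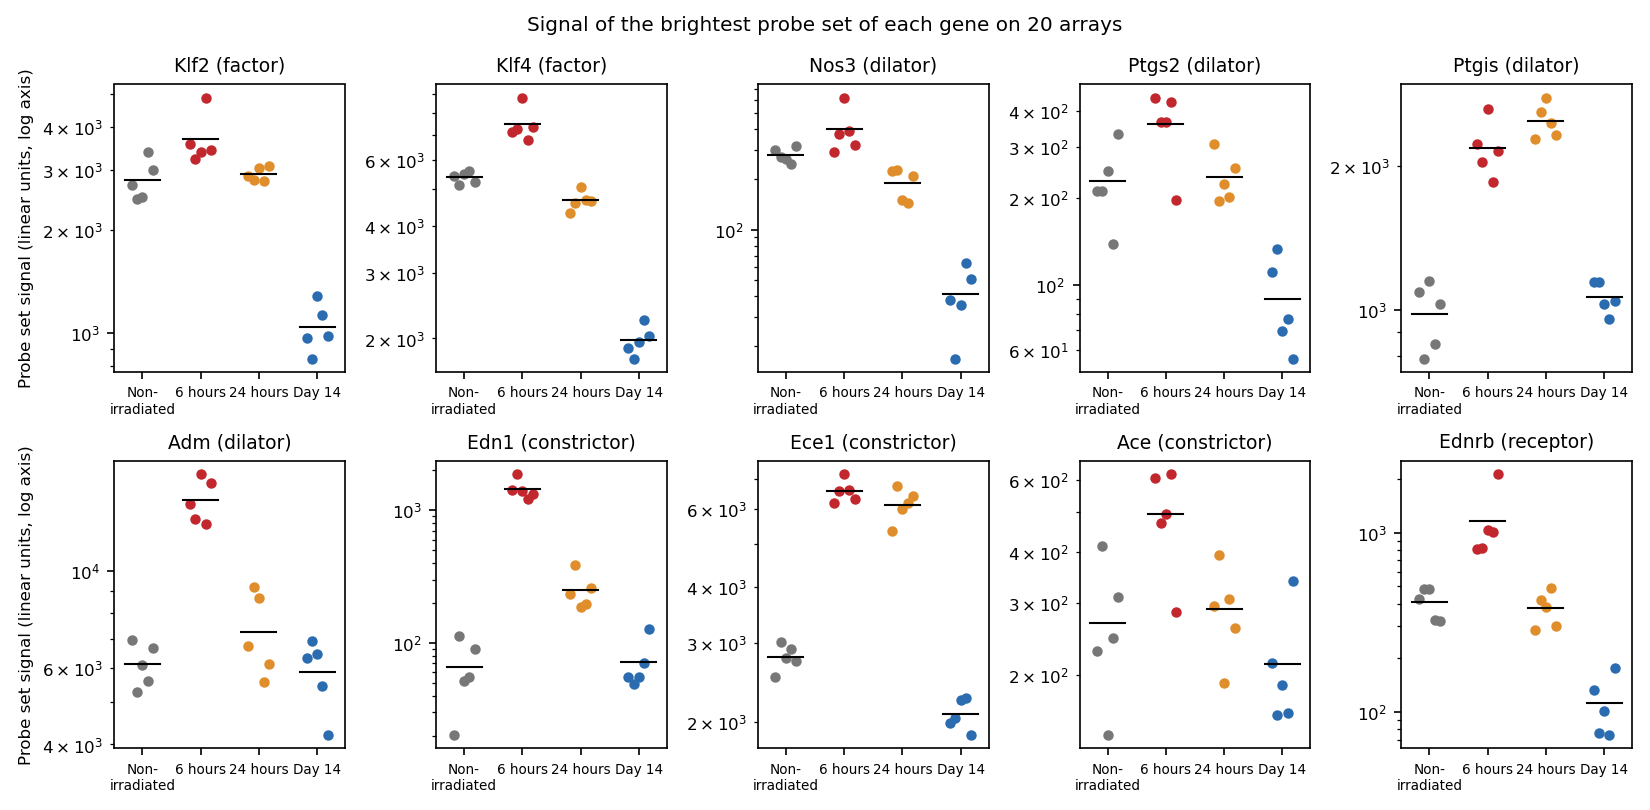
Signal of each of the 10 genes on each of the 20 arrays, with a log axis of linear signal and the mean of each group as a line. Day 14 arrays lie below all others for Klf2, Klf4, Nos3, Ednrb, Ece1 and Ptgs2, while Edn1 lies between 1214 and 1877 at 6 hours and at or under 114 in non-irradiated samples.

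Klf2, a zinc finger factor that laminar flow induces in endothelium, was modestly higher at 6 hours and far lower at day 14. Its signal was 3562, 3228, 3374, 4869.9 and 3415 on the arrays at 6 hours, 2868, 2795, 3037, 2787 and 3078 at 24 hours, and 966, 842, 1280.1, 1126 and 983 at day 14, against 2713, 2462, 2504, 3375 and 2984 in non-irradiated samples. The 6-hour and non-irradiated arrays overlapped, the 24-hour arrays lay inside the non-irradiated range, and each day 14 array was below every other array. The log2 change was 0.39 ± 0.13 at 6 hours (limma adjusted p = 0.0228), 0.06 ± 0.13 at 24 hours (adjusted p = 0.769) and -1.44 ± 0.13 at day 14 (adjusted p = 9.10e-09), a level 2.71-fold lower. The call at 6 hours was lost without 6-hour replicate 4 (0.28, adjusted p = 0.0810), without non-irradiated replicate 2 (0.34, adjusted p = 0.0650) and without non-irradiated replicate 3 (0.35, adjusted p = 0.0634). It was also lost with no intensity trend (adjusted p = 0.0534), with only the compared groups in the fit (adjusted p = 0.0634) and with array weights (adjusted p = 0.0817).

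Klf4, the close relative of Klf2 with many targets in common, was likewise higher at 6 hours and far lower at day 14, with arrays closer together. Its signal was 7115, 7254, 8795, 6783 and 7359 at 6 hours, 4322, 4605, 5084, 4688 and 4667 at 24 hours, and 1880.3, 1765, 1963, 2239 and 2033 at day 14, against 5439.7, 5144, 5497, 5594 and 5242 in non-irradiated samples. All arrays at 6 hours were above the non-irradiated range, all at 24 hours just below it and all at day 14 far below it. Klf4 changed by 0.47 ± 0.084 at 6 hours (adjusted p = 0.000107), -0.21 ± 0.084 at 24 hours (adjusted p = 0.0678) and -1.45 ± 0.084 at day 14 (adjusted p = 4.79e-12), or 2.73-fold lower. The 24-hour value passed the threshold after quantile normalization (-0.27, adjusted p = 0.00514) and turned under median centring of the arrays (0.18, adjusted p = 0.262). It also passed without dim genes (adjusted p = 0.0434) and with a gene's probe sets averaged (-0.18, adjusted p = 0.0452). The same held with only the compared groups in the fit (adjusted p = 0.0212) and with array weights (adjusted p = 0.0263).

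Set against endothelial markers, both KLF genes were called lower at all 3 times. With each array centred on the mean of the 15 markers, Klf2 read -0.99 at 6 hours (adjusted p = 3.51e-07), -0.34 at 24 hours (adjusted p = 0.0477) and -0.37 at day 14 (adjusted p = 0.0215). Klf4 read -0.91 (adjusted p = 1.15e-09), -0.61 (adjusted p = 3.87e-06) and -0.38 (adjusted p = 0.000585) at the same times. The marker mean itself changed by 1.38 ± 0.0625 at 6 hours and -1.07 ± 0.0585 at day 14 (SD over 5 arrays each). Single markers differed widely at day 14, with changes between -3.37 and 0.25, and 5 of the 15 fell more than Klf2 and Klf4. This centring was chosen after the data were seen. On this scale the median of all 18193 genes was -1.40 at 6 hours, -0.47 at 24 hours and 0.89 at day 14. At 6 hours 13373 genes were called lower and 177 higher, and at day 14 343 lower and 9233 higher. Both KLF genes thus lay above the median gene at 6 hours and below it at day 14, and at 24 hours Klf2 lay above it and Klf4 below it. Which cells in the RNA gave the KLF signal was not tested. Values given below against the marker mean carry the same shifts.

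Among the vasodilator genes, Nos3 stood out by its loss at day 14. Nos3 encodes the endothelial synthase that makes nitric oxide. Its signal was 292, 375, 619, 391 and 319.9 at 6 hours, 224, 227, 151, 145 and 210.3 at 24 hours, and 38.2, 16.9, 35.6, 63.4 and 50.9 at day 14, against 299, 273, 266, 248 and 319 in non-irradiated samples. The 6-hour and non-irradiated arrays overlapped, while the 24-hour arrays were all below the non-irradiated ones and the day 14 arrays below everything else. Of the day 14 arrays 4 of 5 were above the background of bacterial probe sets. The log2 changes of Nos3 were 0.46 ± 0.32 at 6 hours (adjusted p = 0.329), -0.57 ± 0.32 at 24 hours (adjusted p = 0.198) and -2.86 ± 0.32 at day 14 (adjusted p = 4.30e-07), or 7.28-fold lower. Against the endothelial marker mean it was -0.92 at 6 hours (adjusted p = 0.0137), -0.97 at 24 hours (adjusted p = 0.0199) and -1.79 at day 14 (adjusted p = 3.22e-05). Of the 15 markers 1, Sox17, fell more at day 14 (-3.37).

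Ptgs2 encodes cyclooxygenase 2, the inducible enzyme that starts prostanoid synthesis. Its signal was 444, 366, 366, 428 and 197 at 6 hours, 308, 196, 224, 201 and 253 at 24 hours, and 111, 134, 69.7, 76.8 and 55.9 at day 14, against 212, 211, 249, 139 and 331 in non-irradiated samples. Only the day 14 arrays were clear of the non-irradiated ones. On the log2 scale Ptgs2 changed by 0.66 ± 0.31 at 6 hours (adjusted p = 0.122), 0.08 ± 0.31 at 24 hours (adjusted p = 0.877) and -1.36 ± 0.31 at day 14 (adjusted p = 0.00236). Without 6-hour replicate 5, the dimmest of its group, the change at 6 hours was 0.86 (adjusted p = 0.0345). It was also called after quantile normalization (0.91, adjusted p = 0.0332) and under median centring of the arrays (0.90, adjusted p = 0.0321). The fall at day 14 was -0.53 (adjusted p = 0.285) after quantile normalization and -0.46 (adjusted p = 0.248) with arrays centred on their medians, neither past the threshold, and -0.29 (adjusted p = 0.475) against the endothelial marker mean.

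Ptgis, the prostacyclin synthase gene, was called higher at both 6 and 24 hours. By brightest probe sets it was the 1 dilator gene called at 24 hours. With a gene's probe sets averaged, Adm was called there too (0.98, adjusted p = 1.75e-05). The signal of Ptgis was 2221, 2034, 2629, 1849 and 2144 at 6 hours, 2272, 2585, 2775, 2458 and 2315 at 24 hours, and 1143, 1145, 1028, 958 and 1043 at day 14, against 1088, 790.2, 1147, 848 and 1029.6 in non-irradiated samples. Every array at 6 and 24 hours lay above the non-irradiated range, and the day 14 arrays lay within it. On the log2 scale Ptgis changed by 1.15 ± 0.13 at 6 hours (adjusted p = 9.78e-08), 1.35 ± 0.13 at 24 hours (adjusted p = 5.32e-09) and 0.13 ± 0.13 at day 14 (adjusted p = 0.499). With arrays centred on their medians the day 14 change was 1.03 and was called (adjusted p = 3.55e-06). Against the endothelial marker mean Ptgis was -0.22 at 6 hours (adjusted p = 0.118), 0.95 at 24 hours (adjusted p = 1.44e-06) and 1.20 at day 14 (adjusted p = 1.19e-08).

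Adm encodes adrenomedullin, a vasodilator peptide that endothelium secretes. Its signal was 14211, 13156, 16690.2, 12792 and 15937 at 6 hours, 6719.7, 9179, 8680.3, 5549.8 and 6122 at 24 hours, and 6316, 6897, 6444, 5452 and 4199 at day 14, against 6959, 5273, 6102, 5595 and 6653 in non-irradiated samples. The 6-hour arrays were all clear of the rest, and the later arrays overlapped the non-irradiated ones. The log2 change of Adm was 1.25 ± 0.13 at 6 hours (adjusted p = 5.55e-08), 0.23 ± 0.13 at 24 hours (adjusted p = 0.226) and -0.08 ± 0.13 at day 14 (adjusted p = 0.723). With arrays centred on their medians the day 14 change of Adm was 0.82 and was called (adjusted p = 0.000242). Against the endothelial marker mean Adm was -0.13 at 6 hours (adjusted p = 0.380), -0.18 at 24 hours (adjusted p = 0.301) and 0.99 at day 14 (adjusted p = 3.47e-07).

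Among the genes of vasoconstrictor synthesis, Edn1 changed most. It encodes the precursor of endothelin 1, a peptide that contracts vascular smooth muscle. Its signal was 1420.4, 1877, 1409, 1214 and 1327 at 6 hours, 233, 385, 186, 197 and 261 at 24 hours, and 55.5, 49.2, 55.8, 70.3 and 127 at day 14, against 20.1, 114, 51.9, 55.4 and 89.7 in non-irradiated samples. The arrays at 6 hours were all above those at 24 hours, those at 24 hours were all above the non-irradiated ones, and the day 14 arrays overlapped the non-irradiated ones, of which 4 of 5 were above background. On the log2 scale Edn1 rose by 4.63 ± 0.37 at 6 hours (adjusted p = 3.51e-10), or 24.7-fold, and was between 4.26 and 4.87 with any 1 array left out. It was 2.08 ± 0.37 at 24 hours (adjusted p = 7.77e-05), or 4.22-fold, and 0.23 ± 0.37 at day 14 (adjusted p = 0.686). With the 3' to 5' balance of Gapdh on each array as a covariate the 24-hour change was 1.75 and just missed the threshold (adjusted p = 0.0512). At day 14 the call depended on the scale, since Edn1 was called higher after quantile normalization (1.28, adjusted p = 0.0159) and under median centring of the arrays (1.13, adjusted p = 0.00998). Against the endothelial marker mean Edn1 was 3.25 at 6 hours (adjusted p = 2.97e-08), 1.68 at 24 hours (adjusted p = 0.000937) and 1.30 at day 14 (adjusted p = 0.00479), and it was the 1 gene of the 10 called higher on that scale at 6 hours.

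Ece1 encodes the protease that cuts the precursor to active endothelin. Its signal was 6179.6, 6588, 7179, 6619 and 6299 at 6 hours, 5345, 6738, 5991, 6183 and 6396 at 24 hours, and 1987, 2035, 2231, 2257 and 1864 at day 14, against 2519, 3013, 2782, 2914 and 2735 in non-irradiated samples. Both early groups were clear of the non-irradiated range from above, and day 14 was clear of it from below. The log2 change was 1.24 ± 0.086 at 6 hours (adjusted p = 2.59e-11), 1.13 ± 0.086 at 24 hours (adjusted p = 1.01e-10) and -0.43 ± 0.086 at day 14 (adjusted p = 0.000773). The direction at day 14 depended on the scale, since it was 0.47 (adjusted p = 0.00112) with arrays centred on their medians and 0.64 (adjusted p = 2.19e-06) against the endothelial marker mean. On that last scale Ece1 was -0.14 at 6 hours (adjusted p = 0.177) and 0.73 at 24 hours (adjusted p = 7.13e-07).

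Ace, the gene of the enzyme that makes angiotensin II and breaks down bradykinin, varied more between arrays. Its signal was 607, 471, 495, 619.9 and 285 at 6 hours, 294, 394, 192, 307 and 260.4 at 24 hours, and 214, 159.8, 189, 161 and 339 at day 14, against 229, 413, 142, 247 and 311 in non-irradiated samples. The groups overlapped at all 3 times. The fitted log2 change of Ace was 0.92 ± 0.30 at 6 hours (adjusted p = 0.0224), 0.16 ± 0.30 at 24 hours (adjusted p = 0.753) and -0.31 ± 0.30 at day 14 (adjusted p = 0.488). The call at 6 hours was lost without 6-hour replicate 1 (0.83, adjusted p = 0.0522), without 6-hour replicate 4 (0.82, adjusted p = 0.0534) and without non-irradiated replicate 3 (0.71, adjusted p = 0.0856). It was also lost with only the compared groups in the fit (adjusted p = 0.0687) and with array weights (adjusted p = 0.0716).

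Ednrb encodes the endothelin B receptor, which on endothelium triggers release of nitric oxide and prostacyclin and clears endothelin, and on smooth muscle triggers contraction. Because of these opposite roles it was counted in neither set. Its signal was 810.5, 820.5, 1037, 1004 and 2119 at 6 hours, 287, 421, 384, 490.0 and 302 at 24 hours, and 132, 75.8, 101, 74.0 and 176 at day 14, against 424, 486, 486, 323 and 321 in non-irradiated samples. The arrays at 6 hours were all above and those at day 14 all below the non-irradiated ones. The log2 change was 1.43 ± 0.28 at 6 hours (adjusted p = 0.000308), -0.12 ± 0.28 at 24 hours (adjusted p = 0.806) and -1.91 ± 0.28 at day 14 (adjusted p = 2.34e-05), or 3.77-fold lower. Against the endothelial marker mean it was 0.05 at 6 hours (adjusted p = 0.867), -0.52 at 24 hours (adjusted p = 0.140) and -0.85 at day 14 (adjusted p = 0.0106).

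**Figure D2:**
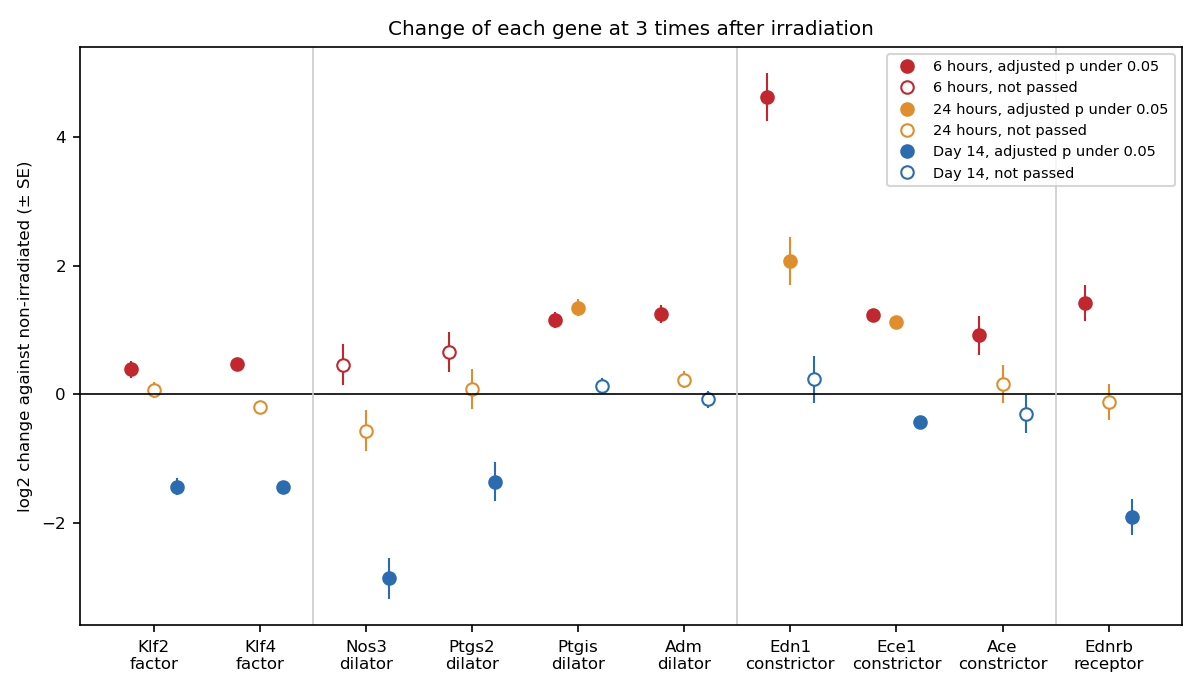
Log2 change of each gene against non-irradiated samples at 6 hours, 24 hours and day 14, with bars of 1 standard error, filled where the adjusted p was under 0.05. Edn1 reached 4.63 at 6 hours and Nos3 -2.86 at day 14, and the KLF genes passed zero between these times.

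The dilator genes (Nos3, Ptgs2, Ptgis and Adm) were next set against the constrictor genes (Edn1, Ece1 and Ace). Ptgs2 was counted as a dilator gene, although the prostanoids whose synthesis it starts include the constrictor thromboxane. Of the 4 dilator genes 2 were higher at 6 hours (Ptgis and Adm, median of the 4 log2 changes 0.90), 1 at 24 hours (Ptgis, median 0.15), and 2 were lower at day 14 (Nos3 and Ptgs2, median -0.72). Of the 3 constrictor genes 3 were higher at 6 hours (median 1.24) and 2 at 24 hours (Edn1 and Ece1, median 1.13), and 1 was lower at day 14 (Ece1, median -0.31). On each array the mean log2 signal of the 4 dilator genes, less the non-irradiated mean, was 0.88 ± 0.20 at 6 hours, 0.27 ± 0.14 at 24 hours and -1.04 ± 0.13 at day 14, compared with a non-irradiated spread of ± 0.21 around 0 (SD, n = 5 each). The same mean of the 3 constrictor genes was 2.26 ± 0.17, 1.12 ± 0.27 and -0.17 ± 0.29, against ± 0.47 around 0.

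The dilator mean less the constrictor mean was below 0 on all 15 irradiated arrays. It lay between -1.55 and -1.12 at 6 hours, -1.16 and -0.51 at 24 hours and -1.53 and -0.63 at day 14, against -0.75 and 0.68 in non-irradiated samples. The 6-hour arrays were clear of the non-irradiated range, and the 24-hour and day 14 arrays overlapped it. Edn1 carried most of the constrictor rise at 6 hours, because without it the constrictor mean was 1.08 ± 0.24 at 6 hours, 0.64 ± 0.22 at 24 hours and -0.37 ± 0.18 at day 14 (SD, n = 5 each). The dilator mean less that of Ece1 and Ace lay between -0.41 and 0.03 at 6 hours, -0.68 and -0.06 at 24 hours and -1.13 and -0.48 at day 14, against -0.56 and 0.50 in non-irradiated samples. Without Edn1 the difference was thus below 0 on 14 of 15 irradiated arrays, and the 6-hour arrays lay inside the non-irradiated range. Adm enters these means by its brightest probe set, of a kind open to cross-hybridization. Its dimmer probe set rose more, by 3.33 at 6 hours and 1.73 at 24 hours. With the dimmer one the dilator means would be higher at both times, and the differences would be less negative or above 0. They were not recomputed. The counts of arrays below 0 and the separation at 6 hours thus apply to the brightest probe sets only. These means describe genes picked with results in view and carry no test.

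**Figure D3:**
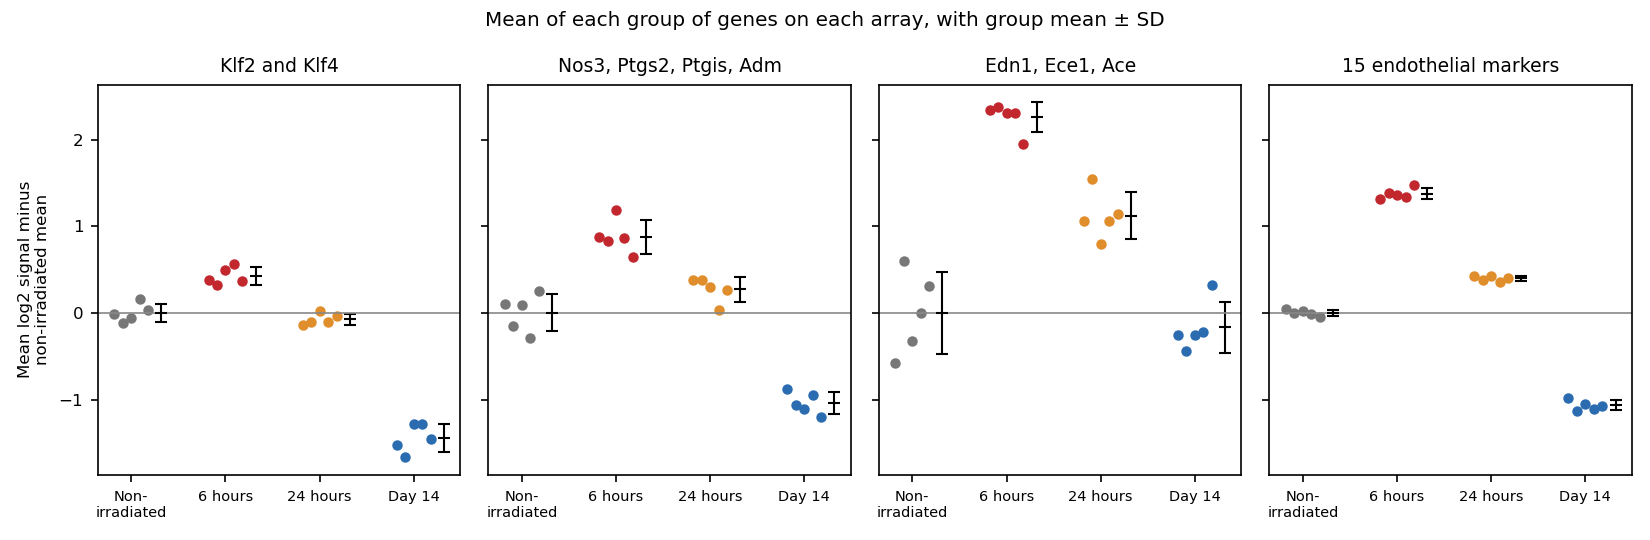
Mean log2 signal less the non-irradiated mean on each of the 20 arrays, for Klf2 and Klf4, the 4 dilator genes, the 3 constrictor genes and 15 endothelial markers, with the group mean and SD beside the points. Constrictor means at 6 hours lie between 1.96 and 2.38, above the marker means, while the KLF means lie between 0.32 and 0.57, below them. Without Edn1, which is not drawn apart, constrictor means at 6 hours lie between 0.68 and 1.27, also below the marker means.

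Irradiated groups were also compared with each other. From 6 to 24 hours 0 genes were higher and 5 lower, where 23.8% of all genes were called, 13.7% higher and 10.1% lower. The 5 were Klf4 (-0.67), Nos3 (-1.03), Edn1 (-2.55), Ednrb (-1.54) and Adm (-1.03), and 6 genes were fully separated downwards, these and Klf2, against 6.61% of all genes downwards and 7.99% upwards. The call of Nos3, at an adjusted p of 0.0202, was lost without 6-hour replicate 3 (adjusted p = 0.0590), 24-hour replicate 3 (adjusted p = 0.0529) or 24-hour replicate 4 (adjusted p = 0.0547), and with array weights (adjusted p = 0.112). With the Gapdh covariate Nos3 read -0.34 (adjusted p = 0.817), and Klf4 (-0.51, adjusted p = 0.0888) and Adm (-0.61, adjusted p = 0.199) were no longer called either. Day 14 against 24 hours had 0 genes higher and 8 lower, where 36.9% of all genes were called, 15.2% higher and 21.7% lower, and all 8 were separated, against 20.6% of all genes downwards and 15.7% upwards. They were Klf2 (-1.50), Klf4 (-1.24), Nos3 (-2.29), Edn1 (-1.85), Ednrb (-1.80), Ece1 (-1.56), Ptgs2 (-1.44) and Ptgis (-1.22). Adm (-0.30, adjusted p = 0.0822) and Ace (-0.46, adjusted p = 0.243) were not called. Day 14 against 6 hours had all 10 genes lower, where 44.9% of all genes were called, 19.8% higher and 25% lower, and 9 of them were separated, against 15.1% of all genes downwards and 13.1% upwards. Ace, the other one, overlapped. With the Gapdh covariate Ptgs2 (-1.39, adjusted p = 0.0891) and Ace (-0.95, adjusted p = 0.254) were not called, and under median centring Ace missed the threshold (-0.58, adjusted p = 0.1).

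The groups can be ordered by level for each gene. The 6-hour group was highest for 9 of the 10 genes and the 24-hour group for Ptgis, where the difference from 6 hours was 0.20 (adjusted p = 0.291). Day 14 was lowest for Klf2, Klf4, Nos3, Ednrb, Ece1, Ptgs2, Ace and Adm, and the non-irradiated group was lowest for Edn1 and Ptgis. For Ace no neighbouring groups in this order differed by the test, and for Adm only 6 and 24 hours did.

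Genes with more than 1 probe set mostly, but not always, gave the same picture. The fits below used all single-symbol probe sets, of which 26.4% were called at 6 hours (11% higher, 15.5% lower), 28.9% at 24 hours (13.8% higher, 15.1% lower) and 25% at day 14 (8.24% higher, 16.7% lower). The second probe set of Klf4 changed by 0.62 at 6 hours (adjusted p = 8.55e-05), -0.15 at 24 hours and -1.26 at day 14 (adjusted p = 3.97e-09). Those of Ednrb fell at day 14 as well, with log2 changes of -1.58 (adjusted p = 0.000279) and -1.54 (adjusted p = 0.00386), but were not past the threshold at 6 hours (0.60, adjusted p = 0.142, and 0.77, adjusted p = 0.146). The second probe set of Ace was called at 6 hours (1.37, adjusted p = 0.000481).

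For Adm, Ptgs2 and Ece1 the probe sets disagreed in size or direction. The brightest Adm probe set is of a kind open to cross-hybridization, and the dimmer one rose more, by 3.33 at 6 hours (adjusted p = 4.21e-08) and 1.73 at 24 hours (adjusted p = 0.000341), with 0.62 at day 14 (adjusted p = 0.203). Its signal was 436, 749.8, 466, 521 and 856 at 6 hours, against 87.3, 47.4, 58.1, 85.7 and 29.9 in non-irradiated samples, with no overlap. The second Ptgs2 probe set read -0.48 at 6 hours (adjusted p = 0.381) and fell by 2.25 at day 14 (adjusted p = 7.66e-05). One further Ece1 probe set rose at 6 hours (0.98, adjusted p = 0.0110) and 24 hours (1.65, adjusted p = 5.54e-05) and read -0.38 at day 14 (adjusted p = 0.350), and the other fell at day 14 (-2.37, adjusted p = 0.000355) after 0.70 at 6 hours (adjusted p = 0.281) and -0.42 at 24 hours.

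**Figure D4:**
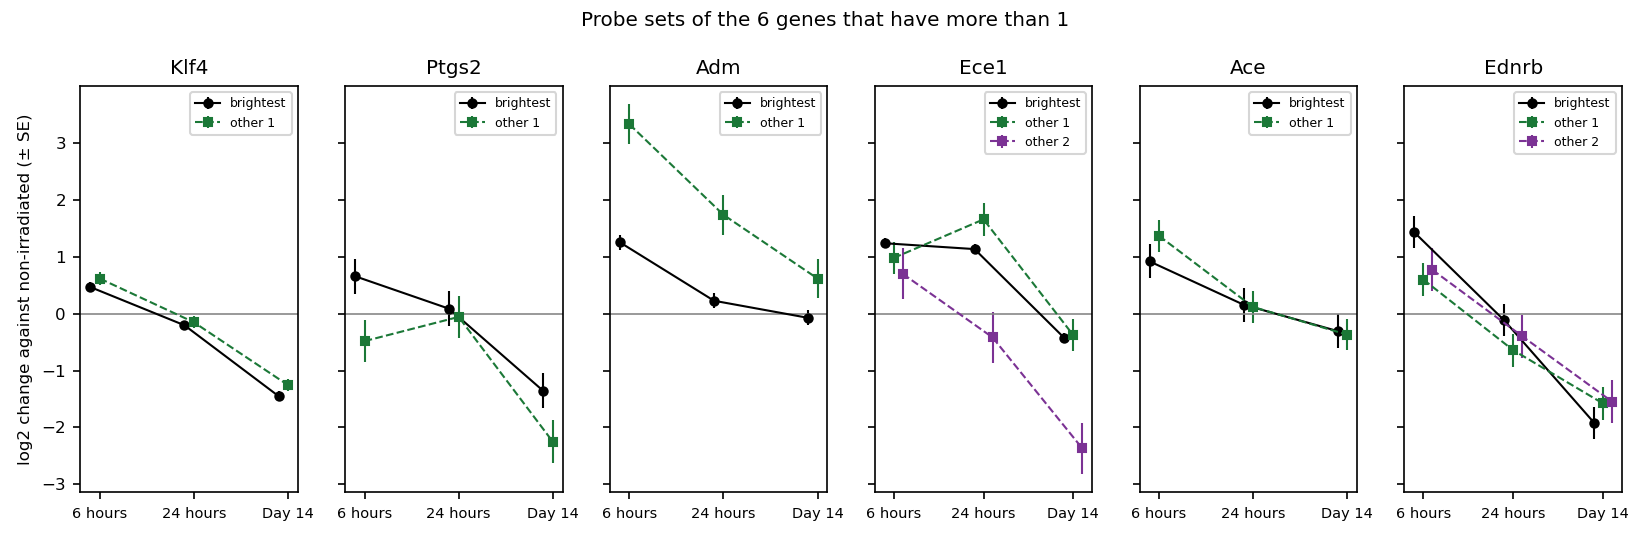
Log2 change against non-irradiated samples at each time, with bars of 1 standard error, for every probe set of the 6 genes that have more than 1, the brightest as circles on a solid line. Probe sets of Klf4, Ace and Ednrb run side by side, while those of Adm differ in size and 1 of Ece1 fell to -2.37 at day 14.

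Other genes of the same pathways were read from lists chosen by name, with earlier results of these data known. Of all genes 12.9% were called higher and 14.5% lower at 6 hours, 15.7% and 13.8% at 24 hours, and 9.47% and 13% at day 14. Some list counts lie near or below these shares, such as 3 of 15 upstream genes at day 14. No list was tested as a set. The arms upstream of the KLF genes include the flow sensors Piezo1 and Pkd1, the MEF2 factors and Heg1, the endothelial receptor of the CCM complex that restrains the kinase cascade. Of 15 such genes measured 5 rose and 0 fell at 6 hours (median log2 change 0.29), 5 rose and 1 fell at 24 hours (median 0.37), and 0 rose and 3 fell at day 14 (median -0.39). Mef2c had a mean signal of 3913 ± 750.2 at 6 hours, against 2348 ± 31.8 in non-irradiated samples (0.71 ± 0.12, adjusted p = 5.99e-05). Mef2a rose by 0.72 ± 0.17 at 6 hours and 0.71 ± 0.17 at 24 hours. Heg1 had 73.9 ± 22.1 at day 14, against 601 ± 152 in non-irradiated samples (-3.04 ± 0.27, adjusted p = 9.10e-09).

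Of 12 genes known as KLF2 or KLF4 targets outside vessel tone 8 rose and 1 fell at 6 hours (median 0.67), 5 rose and 1 fell at 24 hours (median 0.45), and 2 rose and 5 fell at day 14 (median -0.68). S1pr1, a receptor that stabilizes endothelial junctions, rose by 1.46 ± 0.14 at 6 hours (adjusted p = 8.87e-09), and the heme oxygenase gene Hmox1 by 2.70 ± 0.17 at 24 hours (adjusted p = 3.77e-12). Slc9a3r2, a scaffold gene of endothelium, had 1470 ± 268 at day 14, against 5375 ± 629 in non-irradiated samples (-1.88 ± 0.11, adjusted p = 1.26e-11). Tek, which is also in the endothelial marker list, rose by 1.42 ± 0.17 at 6 hours. These counts moved the way the endothelial markers did, and their separation from the markers was not tested.

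Of 14 other KLF genes measured 4 rose and 2 fell at 6 hours, 1 rose and 1 fell at 24 hours and 0 rose and 3 fell at day 14. Klf1, the master factor of red cell genes, had 430 ± 174 at 6 hours and 134 ± 39.2 at 24 hours, against 5693 ± 288 in non-irradiated samples, beside the fall of all 10 erythroid markers at both times, a list that includes Klf1 itself. The 3 genes lower at day 14, Klf6, Klf7 and Klf9, were also higher at 6 hours, the signs of Klf2 and Klf4. Klf7 rose by 1.28 ± 0.16 at 6 hours (adjusted p = 5.05e-07) and fell by 0.82 at day 14 (adjusted p = 0.000506). Klf9 rose by 0.61 ± 0.098 at 6 hours (adjusted p = 2.42e-05) and fell by 0.42 at day 14 (adjusted p = 0.00325). Klf6 rose by 0.76 ± 0.062 at 6 hours (adjusted p = 4.97e-10) and read 5672 ± 319.8 at day 14, against 10179 ± 293 in non-irradiated samples (-0.84 ± 0.062, adjusted p = 2.99e-10). With arrays centred on their medians none of the other KLF genes was called lower at day 14, and 9 were called higher.

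In the nitric oxide and cyclic GMP list, 5 of 15 genes rose and 0 fell at 6 hours (median 0.55), 6 rose and 1 fell at 24 hours (median 0.55), and 3 rose and 1 fell at day 14 (median -0.0025). Both subunit genes of the nitric oxide receptor guanylate cyclase rose, Gucy1b1 by 1.70 ± 0.34 at 6 hours (adjusted p = 0.000344) and Gucy1a1 by 1.76 ± 0.17 at 24 hours (adjusted p = 9.15e-09). Gch1, which makes the cofactor of nitric oxide synthases, had 133 ± 39.9 at 24 hours (-2.01 ± 0.30, adjusted p = 7.49e-06) and 1485 ± 58.2 at day 14 (1.52 ± 0.30, adjusted p = 0.000682), against 543 ± 211 in non-irradiated samples. Ddah2, whose enzyme removes an inhibitor of nitric oxide synthase, rose by 2.48 ± 0.44 at 24 hours (adjusted p = 8.28e-05). Cav1, the caveolin that binds and restrains the Nos3 enzyme, had 900.1 ± 144 at day 14, against 4080 ± 488 in non-irradiated samples (-2.18 ± 0.12, adjusted p = 2.89e-12).

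Of 14 other prostanoid genes measured 5 rose and 0 fell at both 6 and 24 hours (medians 0.40 and 0.71), and 2 rose and 1 fell at day 14 (median 0.06). Slco2a1, a prostaglandin transporter, rose by 1.49 ± 0.19 at both early times, and Ptges, a prostaglandin E synthase, by 1.55 ± 0.37 at 24 hours (adjusted p = 0.00199). Pla2g4a, which frees the arachidonic acid used by cyclooxygenases, rose by 1.28 ± 0.15 at 24 hours (adjusted p = 2.11e-07). Tbxas1, the synthase of the constrictor thromboxane, fell by 1.22 at day 14 (adjusted p = 0.000665).

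The other endothelin genes were few. Of 4 measured 0 rose and 1 fell at 6 hours, and 2 rose and 0 fell at 24 hours and at day 14. Mme, neprilysin, which degrades vasoactive peptides including endothelin, changed by -0.75 ± 0.16 at 6 hours (adjusted p = 0.000588) and by 1.31 ± 0.16 at 24 hours (adjusted p = 2.66e-07). Ece2, a second converting enzyme gene, rose by 1.00 ± 0.37 at 24 hours (adjusted p = 0.0448) and 1.36 ± 0.37 at day 14 (adjusted p = 0.0103). Ednra, the contractile receptor gene, was not analysed here.

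Around Ace, 0 of 10 renin, angiotensin and kinin genes rose and 1 fell at 6 hours, 3 rose and 1 fell at 24 hours, and 1 rose and 0 fell at day 14. Agtr1a, a receptor of angiotensin II, had 140 ± 61.5 at 6 hours (-1.65 ± 0.30, adjusted p = 0.000113) and 94.7 ± 19.2 at 24 hours (-2.11 ± 0.30, adjusted p = 3.66e-06), against 412 ± 90.8 in non-irradiated samples. Agt, the angiotensin precursor gene, had 2382 ± 157 at 24 hours, against 566 ± 99.2 in non-irradiated samples (2.08 ± 0.16, adjusted p = 8.33e-11). Smooth muscle and pericyte genes rose in the same 24-hour arrays, 5 of 10 with 0 falling, and their summed signal was 18669 to 20236 at 24 hours, against 5485 to 6769 in non-irradiated samples, with no marker below background on every array at 24 hours. Acta2, smooth muscle actin, accounted for much of it, at 7640 ± 511 at 24 hours, against 195 ± 79.3 in non-irradiated samples. At 6 hours 6 of these 10 genes rose and 1 fell, with a summed signal of 9988 to 10839. The part of these cells in the 24-hour value of Agt and in the 6-hour and 24-hour values of the 10 genes was not tested.

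Around Adm, 6 of 13 adrenomedullin and natriuretic peptide genes rose and 0 fell at 6 hours (median 0.49), 7 rose and 1 fell at 24 hours (median 0.77), and 1 rose and 3 fell at day 14 (median -0.70). Ramp3, a subunit of adrenomedullin receptors, rose by 1.95 ± 0.49 at 6 hours (adjusted p = 0.00346). Ackr3, a receptor that also binds adrenomedullin, fell by 0.71 at day 14 (adjusted p = 0.00264). Npr1 and Adm2 passed the test at 6 hours with most non-irradiated arrays below background, so no fold is given.

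Counts at day 14 in these lists depend on the scaling. With arrays centred on their medians, which raises the median change of all genes at day 14 by 0.90, the KLF targets had 4 genes higher and 2 lower, the upstream list 10 and 1, the nitric oxide list 9 and 1, the prostanoid list 10 and 0, the other KLF genes 9 and 0, the adrenomedullin list 2 and 0 and the renin and angiotensin list 4 and 0. After quantile normalization these counts were 2 and 2, 0 and 2, 6 and 1, 4 and 1, 0 and 3, 1 and 2, and 1 and 0, in the same order of lists. Of the members, Klf2, Klf4, Nos3 and Ednrb were called lower at day 14 under both.

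The genes with profiles most like those of Klf2, Klf4 and Edn1 were sought over the 20 arrays by the root mean square difference of log2 values, each centred on its non-irradiated mean. Klf2 and Klf4 were each other's closest gene of all measured, at 0.24. After Klf4, the closest to Klf2 were Itpkb (0.29) and Plaur (0.30), and after Klf2 the closest to Klf4 were Lipe (0.25) and H2-Q5 (0.25). The closest to Edn1 were farther away, Inhbb at 0.82, Dcxr at 0.83 and Zmat3 at 1.02. Inhbb read 4.07 at 6 hours, 1.45 at 24 hours and 0.22 at day 14, beside 4.63, 2.08 and 0.23 for Edn1. The measure favours genes with small changes and little noise, and it says nothing of shared control.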

How the data were processed

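RNA of bone marrow VE-cadherin+ cells was measured on 20 Affymetrix arrays, 5 each at 6 hours, 24 hours and day 14 after 5 Gy and in non-irradiated mice. Per the labels' protocols the Qiagen RNeasy micro kit gave the RNA and NuGEN Ovation V2 amplified it. The deposited values are linear intensities per probe set. The values show that the authors brought every array to a mean of 500 with 2% trimmed from either end. Expression Console and Transcriptome Analysis Console, both of Affymetrix, were used per the submitters' processing notes. The summarization algorithm, background correction and array filters are not given in the sources used here, and a scaling of this kind makes every change relative to the rest of the array. Precision is limited by having 5 arrays a group.

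Of 45101 probe sets 34945 carried 1 symbol in the platform's annotation, 932 several, 9160 none here, and 64 were controls. Symbols were checked against RefSeq (GRCm38.p6), where 34741 matched by gene number and 0 changed. Intensities were log2 transformed after adding 1, and each gene was represented by the probe set with the highest mean, with no filter on dim genes. limma 3.58.1 in R 4.3.3 (lmFit, then eBayes with an intensity trend) fitted the 4 groups on all 20 arrays, for 6 two-sided contrasts, with Benjamini-Hochberg adjustment over all genes. Background was the 95th percentile of 27 bacterial probe sets, 17.5 to 51.5 by array. The script for these fits was tested on simulated data.

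The 10 genes and the lists were chosen with earlier results of these data known. Named pathway genes are, per list and time, up to 3 called genes with the largest change, and for the likeness search the 3 nearest genes. Genes of a list with no probe set of a single symbol were left out. Numbered replicates of different groups were not paired, because none of 30 pairs of same-numbered arrays had deviations from their group means correlated above 0.1 (range -0.0665 to 0.0493). The highest correlation between any 2 arrays was 0.962, so none was taken for a repeated deposit. Alternatives tried were quantile normalization, median centring, a filter on dim genes, averaging the probe sets of a gene, dropping probe sets prone to cross-hybridization, adding 16, no trend, the compared groups alone, array weights, a replicate block, a Gapdh 3' minus 5' covariate, a threshold of 0.01 and leaving out each array. Centring on 15 endothelial markers was added after the data were seen. Promoter motifs were searched with Python 3.11.15.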

Additional observations from a re-analysis of the deposited data

Results flagged for a closer look

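In 3 of 40 groups of 5 arrays (10 genes in 4 groups) 1 array lay far from the others by Dixon's test, where chance alone would give about 2. At 6 hours Klf2 read 4870 on replicate 4, against 3562 on the next highest array. At 6 hours Ednrb read 2119 on replicate 5, against 1037 on the next. At 6 hours Ptgs2 read 197.3 on replicate 5, against 365.8 on the next lowest.

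In 4 genes the change from non-irradiated samples was called in opposite directions at different times, and the contrast between those times was called too (limma, adjusted over all genes). A call in that contrast was a condition of being listed, so its p-values add no separate evidence. The 6-hour call of Klf2 did not hold in every alternative. Day 14 minus 6 hours was -1.825 for Klf2 (adjusted p = 1.08e-11), -1.915 for Klf4 (adjusted p = 2.08e-15) and -3.341 for Ednrb (adjusted p = 3.73e-10). Ece1 was the other such gene, at -1.562 for day 14 minus 24 hours (adjusted p = 1.90e-13) and -1.665 for day 14 minus 6 hours (adjusted p = 3.79e-14). Its direction at day 14 against non-irradiated samples turned with the scaling.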

How the results depend on the processing

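Quantile normalization, median centring and endothelial marker centring moved the median change of all genes by 0.14, 0.25 and -1.38 at 6 hours, 0.20, 0.38 and -0.40 at 24 hours, and 0.37, 0.90 and 1.07 at day 14. The calls at day 14 of Klf2, Klf4, Nos3 and Ednrb and those of Ece1 and Ptgis at 24 hours and of Edn1 at 6 hours held under every alternative run. With any 1 array left out the genes called numbered 6 to 9 at 6 hours, 3 at 24 hours, 6 at day 14, 4 to 6 from 6 to 24 hours, 8 to 9 for day 14 against 24 hours and 10 for day 14 against 6 hours. Depth is not known for arrays, and Nos3 at day 14 and Edn1 in non-irradiated samples each had 1 array at or below background. Of 552 list counts under alternatives 85 moved by over 1.5 times, and the cause was not tested.

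Against non-irradiated samples, median centring gave 5 members called at 24 hours and turned Klf4 (0.18) and Ednrb (0.26) at 24 hours and Ece1 (0.47), Ace (0.59) and Adm (0.82) at day 14. It also turned Ece1 between 6 and 24 hours (0.030) and Ace (0.053) and Adm (0.22) for day 14 against 24 hours. Quantile normalization turned Klf2 (-0.048) and Ednrb (0.026) at 24 hours and Ace (0.31) at day 14. With the probe sets of a gene averaged, 5 members were called at 24 hours and Adm at day 14 was 0.27, and it was 0.62 without cross-hybridizing probe sets. With the Gapdh covariate 2 members were called between 6 and 24 hours, Ece1 (0.12) and Ptgs2 (0.16) turned there, and Edn1 (-0.022) and Adm (0.15) turned at day 14. The covariate ended the calls of Klf2 and Ace at 6 hours, Edn1 at 24 hours and Ece1 and Ptgs2 at day 14. The covariate, the 3' minus 5' log2 signal, averaged 1.58 ± 0.287 in 6-hour, 0.77 ± 0.0560 in 24-hour and 0.89 ± 0.121 in day 14 samples, against 1.33 ± 0.0404 in non-irradiated ones (SD, n = 5 each). Endothelial marker centring called 5 members at 6 hours (1 higher, 4 lower), 6 at 24 hours (3 and 3) and 9 at day 14 (5 and 4). It turned Klf2 (-0.99), Klf4 (-0.91), Nos3 (-0.92), Ece1 (-0.14), Ptgs2 (-0.72), Ptgis (-0.22), Ace (-0.46) and Adm (-0.13) at 6 hours, Klf2 (-0.34), Ptgs2 (-0.32), Ace (-0.25) and Adm (-0.18) at 24 hours, and Ece1 (0.64), Ace (0.76) and Adm (0.99) at day 14. With 1 array left out Ptgs2 at 24 hours was -0.080 to 0.23, Ace at 24 hours -0.050 to 0.33, Edn1 at day 14 -0.13 to 0.48 and Adm at day 14 -0.14 to 0.040.

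Counts over all genes moved by over 1.5 times at day 14 with median centring (8671), only the compared groups (6147), array weights (6242), a threshold of 0.01 (2152) and endothelial marker centring (9576), at 6 hours with that centring (13550), at 24 hours with the Gapdh covariate (3477), between 6 and 24 hours with that covariate (1455) or the 0.01 threshold (2713), and for day 14 against 6 hours with the covariate (4398). The split of higher and lower genes, 2343 and 2640 at 6 hours, 2861 and 2513 at 24 hours and 1723 and 2359 at day 14, became 3531 and 1617, 4950 and 1139, and 8210 and 461 with median centring, 177 and 13373, 1456 and 5177, and 9233 and 343 with endothelial marker centring, and at day 14 it was 1784 and 1136 after quantile normalization, 1820 and 1521 without dim genes and 1460 and 3624 with the mean of probe sets. With median centring the splits were 3150 and 1231 between 6 and 24 hours, 4971 and 1687 for day 14 against 24 hours and 6650 and 1756 for day 14 against 6 hours, and the last was 4031 and 2880 after quantile normalization. With a replicate block, for numbers that do not pair the samples, 8, 3 and 6 members were called at 6 hours, 24 hours and day 14, as without it. All-gene counts with the block were 4931, 5282 and 3899, against 4983, 5374 and 4082 without it.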
